A study of Mus musculus with 4 samples.

Results

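The genes described here carry out antigen presentation on major histocompatibility complex (MHC) class II molecules: *Cd74*, *H2-Aa*, *H2-Ab1*, *H2-Eb1*, *H2-DMa*, *H2-DMb1* and *Ciita*, 7 of the 27487 genes listed in the count tables. They were taken by symbol from every table. The genes were selected on their UMI counts in macrophages and microglia of these data, so those levels are given as a description without a test. The cells came from the cortex of heterozygous Tg2576 mice (TG), strain B6;SJL-Tg(APPSWE)2576Kha, and of wild-type littermates (WT), both sexes, aged 24 weeks. The transgene encodes human amyloid precursor protein with the Swedish mutation and is driven by a prion protein promoter. All mice were perfused with PBS, the Adult Brain Dissociation Kit was used to release the cells, and Drop-seq, a droplet method that tags each captured mRNA with a unique molecular identifier (UMI), was applied. Cells of 9 mice were pooled for each of 4 libraries, called Female_WT, Female_TG, Male_WT and Male_TG, so that there is 1 library per sex and genotype and no replicate within a sex.

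MHC class II molecules are heterodimers of an alpha and a beta chain that display peptides from endosomes to CD4 T cells. In mice, *H2-Aa* and *H2-Ab1* encode the chains of the I-A molecule and *H2-Eb1* encodes the beta chain of I-E. *Cd74* encodes the invariant chain, which fills the groove until the molecule reaches the endosome, and *H2-DMa* and *H2-DMb1* encode the H2-DM heterodimer, which exchanges the invariant chain remnant for antigenic peptides. *Ciita* encodes the coactivator that switches the pathway on and is itself induced by interferon gamma. In brain, the strongest producers are dendritic cells and some macrophages at the borders, B cells among lymphocytes, and activated microglia.

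*H2-Aa*, *H2-Ab1*, *H2-Eb1*, *H2-DMa* and *H2-DMb1* lie close together on chromosome 17, between 34119693 and 34316674, and *Ciita* lies on chromosome 16 from 10480014 to 10531064 (RefSeq, GRCm38.p6). A RefSeq table of promoters (GRCm38.p6, from 250 bases before to 50 bases after each gene start) held 4 of the 7 genes, *H2-Aa*, *H2-Eb1*, *H2-DMa* and *H2-DMb1*. Known class II promoters combine an X box, bound by RFX, and a CCAAT-containing Y box, bound by NF-Y. The stretches below show this shared arrangement in 3 of the genes. The letters searched, on the strand of the gene and chosen after the sequences had been read, were GNAACT, as found at the start of the X box, followed after 20 to 30 bases by TGATTGG, the Y box with its CCAAT read on the other strand. Capitals mark both.

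*H2-Aa*, chr17:34287859-34287916, minus strand: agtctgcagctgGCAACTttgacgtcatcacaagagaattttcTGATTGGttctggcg
*H2-Eb1*, chr17:34305764-34305820, plus strand: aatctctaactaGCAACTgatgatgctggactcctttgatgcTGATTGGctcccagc
*H2-DMb1*, chr17:34153085-34153142, plus strand: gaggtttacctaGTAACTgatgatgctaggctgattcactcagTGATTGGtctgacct

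The pair was separated by 25, 24 and 25 bases in *H2-Aa*, *H2-Eb1* and *H2-DMb1*, with the first motif starting 81, 91 and 94 bases before the gene start. It occurred in the windows of 38 of 27025 genes (0.141%), *H2-Eb2* being the other class II gene among them, whereas TGATTGG alone occurred in 9.0% and GNAACT alone in 46.8% of the genes. Neither of the 2 windows of *H2-DMa* held the pair, which says only that these letters are not there.

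Of 12000 barcodes, 4835 with 200 to 7000 genes and a mitochondrial share of at most 20% were kept, 1010 to 1532 per library, with 1593675 to 1758582 UMIs per library and a median of 909 to 1331.5 UMIs per cell. The libraries differed in mitochondrial share, at 9.27% and 9.92% of UMIs in the female and 6.89% and 5.0% in the male WT and TG cells. In all, 27 barcode sequences occurred in more than 1 library. Clustering gave 1840 microglia, 27 macrophages and 11 other named classes, all 10 macrophage markers being raised in the macrophage cluster. All 10 microglia markers were raised in the clusters of 1081 and 686 cells that make up most of the microglia class, and 5 in its remaining cluster of 73 cells. The H2 genes, *Cd74*, *Ciita* and the other pathway genes were left out of the genes used for clustering. Although the tissue was labelled cortex, classes named from choroid plexus (109 cells), ependymal (50), neuroblast or progenitor (110) and olfactory ensheathing glia (52) markers were present. Endothelial cells with an interferon signature came to 43 cells in Female_TG, 19 in Male_WT, 2 in Male_TG and 0 in Female_WT.

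The invariant chain and the 3 class II chains were concentrated in a handful of cells, whereas the H2-DM genes were spread thinly over many. *Cd74* had 493 UMIs in 114 of the 4835 cells, yet 6 cells held 50% of them and the cell with the most held 81 UMIs (16.4%). *H2-Aa* had 115 UMIs in 25 cells, *H2-Ab1* 163 in 42 cells and *H2-Eb1* 153 in 37 cells, and for each of these chains 4 cells held 50%. In contrast, the 241 UMIs of *H2-DMa* came from 208 cells and the 192 UMIs of *H2-DMb1* from 175 cells, with at most 4 and 2 UMIs in a cell, and 88 and 79 cells were needed to reach 50%. *Ciita* had 4 UMIs in 3 cells, and its expression elsewhere was not detectable at this depth.

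**Figure D1:**
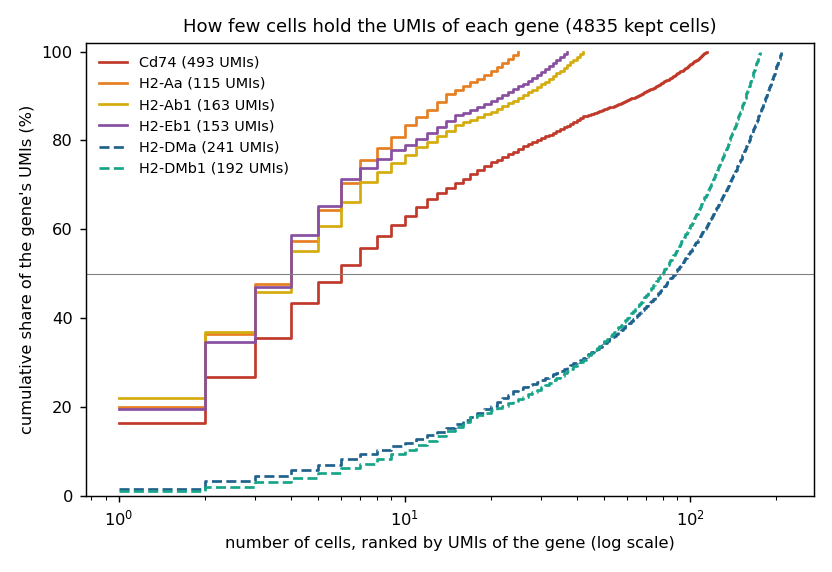
Cumulative share of the UMIs of each gene (vertical axis, %) against the number of cells, ranked from the cell with the most UMIs (horizontal axis, log scale), over all kept cells of the 4 libraries. The curves of *Cd74*, *H2-Aa*, *H2-Ab1* and *H2-Eb1* pass 50% (grey line) at 4 to 6 cells, those of *H2-DMa* and *H2-DMb1* at 88 and 79 cells.

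A cell was called MHC II-high when it held at least 5 UMIs summed over *Cd74*, *H2-Aa*, *H2-Ab1* and *H2-Eb1*, with at least 2 of the 3 H2 chain genes among them. There were 16 such cells, 0.331% of the kept cells (exact Clopper-Pearson 95% interval 0.189 to 0.537%), and they held 704 of the 924 UMIs of the 4 genes (76.2%). Female_WT had 2 of them (0.192%, interval 0.0232 to 0.69%), Female_TG 4 (0.32%, 0.0873 to 0.818%), Male_WT 7 (0.693%, 0.279 to 1.42%) and Male_TG 3 (0.196%, 0.0404 to 0.571%). The 4 intervals overlapped, and like all intervals given here they cover counting error only, not the variation between mice. The intervals of levels and ratios further count each UMI as independent. Where few cells hold the UMIs, they are too narrow even for the spread between cells. The MHC II-high cells held 70.6% of the UMIs of the 4 genes in Female_WT, 65.5% in Female_TG, 78.0% in Male_WT and 85.0% in Male_TG, and the single cell with the most UMIs held 54.4%, 28.8%, 35.8% and 62.7%, respectively. Hence in 2 of the 4 libraries 1 cell supplied most of the signal.

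The 16 cells did not come from 1 class. Microglia accounted for 7 (Female_TG 1, Male_WT 4, Male_TG 2), interferon-signature endothelial cells for 3, and an unnamed cluster of 51 leukocytes for 2. A single cell each was found among macrophages, mural cells, neuroblasts or progenitors and ependymal cells. The 3 cells with the most UMIs were a Male_WT cell in the neuroblast or progenitor class with 140 UMIs of the 4 genes, a Male_TG microglia-class cell with 138 and a Male_WT microglia-class cell with 97, and together they held 40.6% of all UMIs of the 4 genes. The first also held 6 UMIs of *Top2a* and 8 of *Mki67*, genes of dividing cells, together with 3 of *Ptprc*, the pan-leukocyte gene, and 0 UMIs of 8 of the 10 neuroblast or progenitor markers. The cell in the ependymal class held 45 UMIs of the 4 genes, 5 of *Ptprc* and 0 of any ependymal marker.

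**Figure D2:**
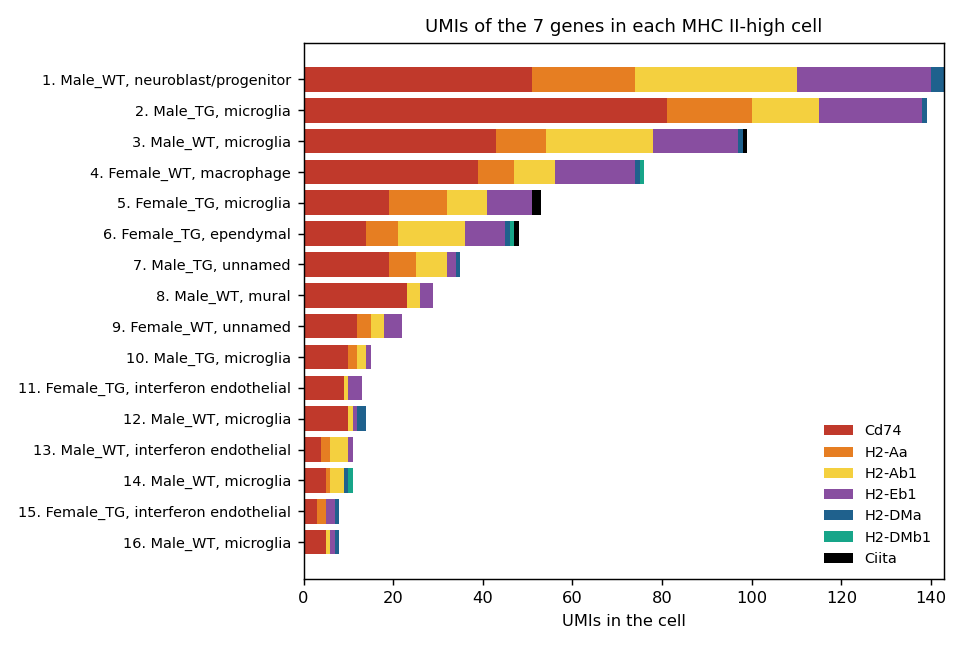
UMIs of the 7 genes (horizontal axis) in each of the 16 MHC II-high cells, named by library and class and ordered by the summed UMIs of *Cd74*, *H2-Aa*, *H2-Ab1* and *H2-Eb1*. Interferon endothelial stands for interferon-signature endothelial. The sums run from 140 to 7, and the 3 cells with a UMI of *Ciita* (black) are among the 6 highest.

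Beyond the class II genes, the 7 MHC II-high cells in the microglia class held a median of 3 of the 10 microglia markers (range 0 to 8), and these markers made up a median of 0.427% of a cell's UMIs. In the other 1833 microglia the medians were 7 markers and 1.99%. The MHC II-high cells were not the shallower ones, with a median of 1551 UMIs against 1166. The Male_WT microglia-class cell with 97 UMIs held 0 microglia markers, whereas 3 Male_WT cells near the threshold, with 12, 9 and 7 UMIs of the 4 genes, held 6, 7 and 8. Genes with at least 10 UMIs in the 7 cells, in at least 3 of them, and the largest excess over other microglia, a rule set after the values were seen, included *Il1b* (5264 against 343.6 CPM, UMIs scaled to a common total of 1000000 per group), the chemokine *Ccl12* (1449 against 134.7 CPM), *Apoe* (9460 against 705.9 CPM), *Lyz2*, lysozyme of monocytes and macrophages (991.8 against 109.3 CPM), and *Cd52* (762.9 against 119.1 CPM). Each was found in 3 to 5 of the 7 cells.

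Markers of other professional antigen presenting cells were sparse in the 16 cells. Of 10 dendritic cell markers 3 had a UMI, with 5 UMIs in all. *Cd209a* had 1 UMI each in the Male_WT cell with 140 UMIs of the 4 genes and in the Female_TG cells with 51 and 45. *Flt3*, *Zbtb46*, *Itgax*, *Xcr1* and *Ccr7* were at 0. With a median of 1595 UMIs per MHC II-high cell, a count of 0 does not show that a gene was silent. Of 9 B cell markers listed in the files 1 had UMIs, 3 in all, and *Cd79a*, *Cd79b* and *Ms4a1* were at 0. Monocyte markers came to 21 UMIs from 4 of 9 genes. Of these UMIs, 6, 2 and 1 were in the 3 interferon-signature endothelial cells and 2 in the mural-class cell. Each of those cells held at least 8 of the 10 endothelial markers. The monocyte list includes *Ly6c2*, which was also a leading gene of an endothelial cluster. Among the monocyte markers, *Ccr2* had 1 UMI each in the cells with 140, 138 and 45 UMIs of the 4 genes and 2 in a Female_WT cell with 22. A Female_TG microglia-class cell with 51 UMIs of the 4 genes held 5 UMIs of *Mgl2*, a lectin of dendritic cells and macrophages, and 2 of *Ciita*. *Mgl2* also had 2 UMIs in the Female_TG cell with 45 and 1 each in the microglia-class cells with 97 and 15. No MHC II-high cell was a doublet by Scrublet or carried a barcode found in a second library, and no pair of their barcodes differed at fewer than 4 positions. The part of other cell types in the signal was not tested beyond these counts.

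The chains and *Cd74* occurred together mainly in cells with several UMIs. Of the 27 cells with at least 3 UMIs of *Cd74*, 19 (70.4%, interval 49.8 to 86.2%) also held a UMI of *H2-Aa*, *H2-Ab1* or *H2-Eb1*, against 2 of the 72 cells with exactly 1 UMI of *Cd74* (2.78%, 0.338 to 9.68%). Most cells with an H2-DM gene held no UMI of *Cd74*, which was present in 22 of 208 cells with *H2-DMa* (10.6%) and 13 of 175 cells with *H2-DMb1* (7.43%). *Cd74* was itself detected in only 2.36% of all kept cells and 4.67% of microglia. The shares among cells with an H2-DM gene were above both values, so they do not show that the genes occurred apart. All 3 cells with *Ciita* were MHC II-high. *H2-DMa* was denser in MHC II-high cells, at 311.9 CPM (exact Poisson interval 166.1 to 533.4, 13 UMIs), than in the other microglia, at 89.4 CPM (77.75 to 102.3). For *H2-DMb1* the levels were 72.0 CPM (14.84 to 210.3, 3 UMIs) and 74.2 CPM (63.57 to 85.99). Thus of the H2-DM genes the intervals separated for *H2-DMa* alone, on 13 UMIs.

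Microglia were the class with the most UMIs of each of the 7 genes. They made up 38.1% of the kept cells and 35.9% of the UMIs. They held 57.6% of the *Cd74* UMIs, 217 of 241 UMIs of *H2-DMa* and 176 of 192 UMIs of *H2-DMb1*. For *H2-Aa*, *H2-Ab1* and *H2-Eb1* their share was 45.2%, 46.0% and 37.9%. Without the MHC II-high cells, microglia held 6, 20 and 3 UMIs of these chains. The single MHC II-high cell in the neuroblast or progenitor class held 23, 36 and 30. The level of *Cd74* in microglia was 37.6 CPM in Female_WT, 65.9 in Female_TG, 215.5 in Male_WT and 177.4 in Male_TG. Astrocytes, a class of similar depth that should lack the gene, gave 1 UMI in 921 cells. Once the MHC II-high cells were left out, the microglial values became 37.6, 33.0, 99.2 and 25.2 CPM, so that Male_WT alone stayed high. *H2-DMa* in microglia stood at 69.2, 71.1, 119.9 and 110.4 CPM in the same order, both male libraries lying above both female ones, and *H2-DMb1* at 70.7, 60.7, 65.6 and 98.7 CPM. Removing the MHC II-high cells moved the *H2-DMa* and *H2-DMb1* levels little, to 69.2, 71.3, 112.6 and 109.1 CPM and to 70.7, 60.8, 64.9 and 99.1 CPM.

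*Cd74*, *H2-Ab1*, *H2-DMa* and *H2-DMb1* were higher in microglia than in astrocytes in all 4 libraries without overlap (4 of the 6 genes with at least 10 UMIs). The same held for 24.7% of all 13805 genes compared, so this share of the genes is described and nothing more is read from it. *H2-Aa* (3.01 to 36.8 CPM) and *H2-Eb1* (0 to 43.1 CPM) overlapped with astrocytes (0 to 3.35 CPM for each).

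Within microglia the cell-to-cell spread differed between the 2 groups of genes, mostly through the MHC II-high cells. The variance over the mean of *Cd74* per cell was 1.19 in Female_WT, 10.0 in Female_TG, 18.4 in Male_WT and 63.0 in Male_TG. Female_WT, the only library without an MHC II-high microglia-class cell, had the low value. For *H2-DMa* the ratio was 1.12, 1.16, 1.26 and 1.39, and for *H2-DMb1* 1.2, 1.05, 1.07 and 1.06, close to the value of 1 that counting alone gives. Without the MHC II-high cells, which were picked by these same UMIs, the *Cd74* ratio was 1.19, 1.18, 2.66 and 1.64. That of *H2-DMa* was then 1.12, 1.16, 1.27 and 1.4, so much of the contrast came from those cells. At least 1 UMI of *H2-DMa* or *H2-DMb1* was present in 325 of 1840 microglia (17.7%, median depth 1169.5 UMIs) and in 7 of 921 astrocytes (0.76%, median 1032 UMIs). With each cell thinned to 500 UMIs, 7.9% of microglia had one (6.70%, 8.62%, 7.36% and 8.70% in Female_WT, Female_TG, Male_WT and Male_TG), against 0.399% of astrocytes. A total of 169 microglia and 170 astrocytes with fewer UMIs were left out. The unthinned shares were 16.9%, 13.3%, 22.7% and 19.2%, so the order of the libraries differed between the measures.

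Microglia fell mainly into a cytokine-high cluster (1081 cells, led by *Il1a*, *Il1b*, *Ccl4* and *Tnf*) and a *P2ry12*-high cluster (686 cells). *Cd74* was 47.9, 110.1, 274.8 and 203.0 CPM in the cytokine-high and 18.1, 31.5, 9.14 and 36.0 CPM in the *P2ry12*-high cluster (Female_WT, Female_TG, Male_WT, Male_TG), and 6 of the 7 MHC II-high microglia-class cells were in the former. *H2-DMb1* went the other way, at 45.6, 51.1, 57.9 and 91.5 CPM in the cytokine-high and 122.2, 69.4, 100.5 and 122.3 CPM in the *P2ry12*-high cluster. *H2-DMa* leaned the same way, at 61.6, 62.9, 110.9 and 102.6 CPM in the cytokine-high and 67.9, 75.7, 146.2 and 136.7 CPM in the *P2ry12*-high cluster. For both genes the Poisson intervals of the clusters overlapped, except for *H2-DMb1* in Female_WT. Within each of the 4 libraries the order of the clusters was the same for *H2-DMb1* and for *H2-DMa*. For *Cd74* it was the same with all cells, but without the MHC II-high cells the cytokine-high cluster was at 47.9, 35.6, 125.9 and 22.4 CPM, which in Male_TG lay below the *P2ry12*-high cluster. The clusters were built from these cells, so no test of the difference was made.

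Macrophages, recognized by *Mrc1*, *Pf4*, *F13a1* and *Lyve1*, were few, with 6 cells in Female_WT, 9 in Female_TG, 7 in Male_WT and 5 in Male_TG. The summed level of *Cd74*, *H2-Aa*, *H2-Ab1* and *H2-Eb1* was 5479, 207.8, 470.6 and 223.1 CPM, resting on 74, 3, 3 and 1 UMIs. All 74 UMIs of Female_WT came from 1 of its 6 cells, and without that cell the library held 0 UMIs in 9528, which allows a level of up to 314.9 CPM at 3 counts. That cell had 3978 UMIs in all, 8 of the 10 microglia markers and 4 of the 10 macrophage markers. *H2-DMa* and *H2-DMb1* had 2 UMIs and 1 UMI in macrophages, all in Female_WT. The mean over libraries of the 7 genes summed was 1651 CPM, but 300.5 CPM without Female_WT, against 373.1 CPM in microglia.

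*Cd74* alone stood at 2888, 138.5, 470.6 and 223.1 CPM in macrophages, above microglia of the same library in each case, on 39, 2, 3 and 1 UMIs. The ranges of the classes over the libraries overlapped, microglia reaching 215.5 CPM. With 4482 to 14440 UMIs per library in macrophages, 3 counts amount to 207.8 to 669.3 CPM, so at this depth no order between the classes is read for the class II genes. Genes of the antigen presentation pathway were left out of the next comparison. The genes with at least 20 UMIs in the MHC II-high macrophage that exceeded the other 26 macrophages most were *Nfkbia*, an NF-kappa-B target (8.75-fold, 33 UMIs), *Cd14* (7.99-fold, 21 UMIs), the chemokine *Cxcl1* (7.29-fold, 20 UMIs), *Egr1* (4.74-fold, 26 UMIs) and *Il1b* (4.48-fold, 21 UMIs). *Fos* and *Jun* followed at 2.03-fold and 1.80-fold, *Cst3* at 1.08-fold, and the other genes that could be compared, *Tmsb4x* and *Malat1*, stood at 0.915-fold and 0.758-fold. These ratios set 1 cell against 26 and carry no replicate.

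Outside the myeloid cells, the interferon-signature endothelial cells were the class with class II signal in several cells. Their summed level of the 4 genes was 559.3 CPM in Female_TG (39 UMIs, 8 of 43 cells) and 956.3 CPM in Male_WT (26 UMIs, 6 of 19 cells), and 0 UMIs were seen in the 2 cells of Male_TG. The other endothelial cells reached 8.35 to 20.4 CPM. In all, 14 of 64 cells (21.9%, interval 12.5 to 34.0%) held at least 1 UMI, with a median depth of 1131 UMIs, against 8 of 698 other endothelial cells (1.15%, median 808 UMIs). With each cell thinned to 500 UMIs the shares were 13.1% and 0.371%. The signal of the mural, ependymal and neuroblast or progenitor classes came from 1 cell in each, with 0 UMIs of the 4 genes in every other cell of these classes. OPCs and neurons were at 0. In the unnamed leukocyte cluster, whose leading genes were *Ngp*, *S100a8*, *S100a9* and *Camp* of neutrophils beside *Ms4a4b* and *Cd74* itself, the level was 3000 CPM in Female_WT, 943.8 in Female_TG, 0 in Male_WT and 4423 in Male_TG, carried by 6 of 51 cells.

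**Figure D3:**
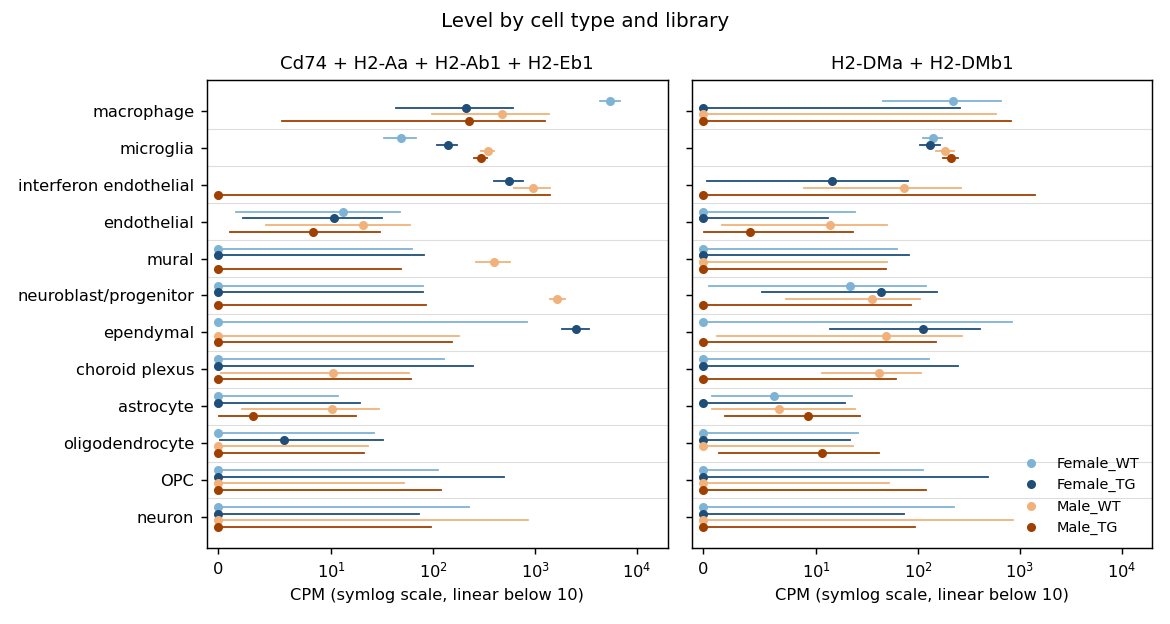
Level of *Cd74*, *H2-Aa*, *H2-Ab1* and *H2-Eb1* summed (left) and of *H2-DMa* and *H2-DMb1* summed (right) by cell type, in CPM on a symlog axis that is linear below 10. Points are libraries and bars exact Poisson 95% intervals; on the right microglia lie between 131.8 and 209.2 CPM in all 4 libraries, while on the left single libraries stand far above the others in macrophages, mural, ependymal and neuroblast or progenitor cells.

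The question of whether the transgene goes with a difference in these genes was addressed in macrophages, microglia and all kept cells, by log2 ratios of CPM, TG over WT, within each sex and by a test over the 4 libraries. In microglia the 4 genes summed were at 48.1 CPM in Female_WT (32 UMIs), 138.7 in Female_TG (80 UMIs), 342.9 in Male_WT (183 UMIs) and 291.2 in Male_TG (174 UMIs). Both male libraries lay above both female ones, but without the MHC II-high cells the levels were 48.1, 50.4, 110.7 and 35.3 CPM and Male_TG was the lowest. The log2 ratio was 1.53 in females (exact conditional 95% interval 0.92 to 2.17) and -0.24 in males (-0.54 to 0.07). Without the 7 MHC II-high cells it was 0.07 in females (-0.71 to 0.84) and -1.65 in males (-2.45 to -0.91), an alternative added after the data had been seen. A single Female_TG cell held 51 of the 80 UMIs behind the female difference. With at least 500 genes per cell the female ratio was -1.58, and with no mitochondrial limit -0.18.

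The male difference in the remaining microglia came from *Cd74*, with 52 UMIs in Male_WT and 15 in Male_TG (log2 ratio -1.98, interval -2.91 to -1.13). In these Male_WT microglia the variance over the mean of *Cd74* per cell was 2.66. The interval leaves out this spread between cells. The cytokine-high cluster held 51 UMIs in Male_WT and 10 in Male_TG, and the *P2ry12*-high cluster 1 and 5. The difference between the clusters was not tested. The share of all microglia with a UMI of *Cd74* was 9.48% (6.62 to 13.1%) in Male_WT and 2.42% (1.30 to 4.10%) in Male_TG, and 5.21% (3.07 to 8.22%) and 0.425% (0.0515 to 1.53%) after thinning to 500 UMIs. Astrocytes of Male_WT held *Cd74* in 0 of 215 cells, which allows a share of cells with a UMI of up to 1.4% at 3 counts. In females the corresponding unthinned shares were 4.88% in WT and 3.57% in TG. As each sex and genotype is 1 pool, the genotype and the library cannot be told apart.

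In microglia *H2-DMa* had log2 ratios of 0.04 in females (-0.60 to 0.68) and -0.12 in males (-0.64 to 0.40), and *H2-DMb1* of -0.22 (-0.89 to 0.44) and 0.59 (-0.04 to 1.24). All 4 intervals included 0. The sum of both genes was 139.8 CPM in Female_WT, 131.8 in Female_TG, 185.5 in Male_WT and 209.2 in Male_TG, with log2 ratios of -0.09 (-0.54 to 0.37) in females and 0.17 (-0.22 to 0.57) in males. Leaving out the MHC II-high cells gave -0.08 and 0.23. These intervals leave room for a decrease of the sum down to -0.54 in females and an increase up to 0.57 in males on the log2 scale.

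**Figure D4:**
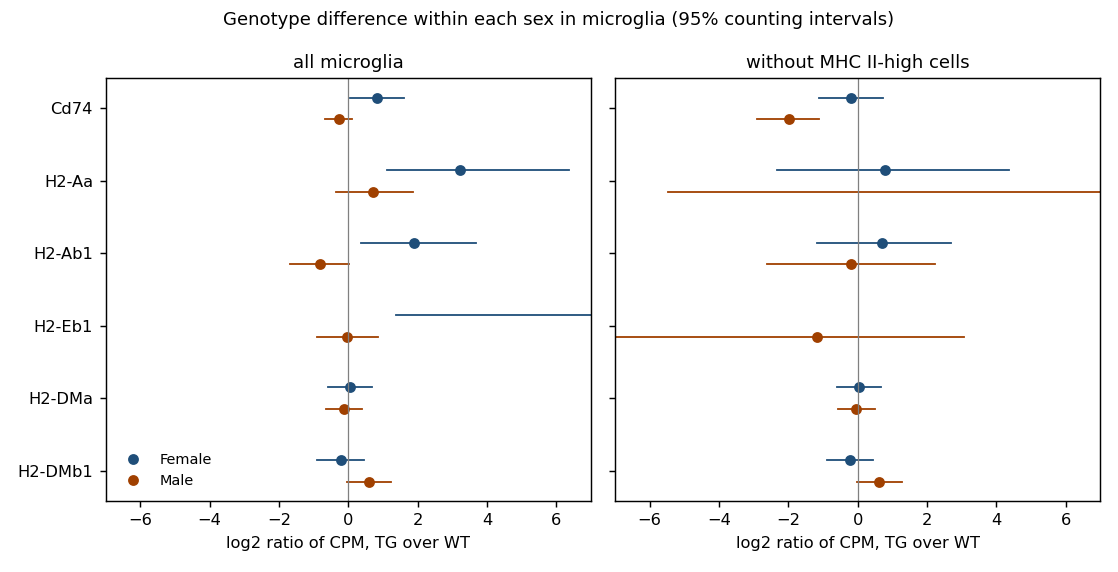
Log2 ratio of CPM, TG over WT, in microglia for each gene within females (blue) and males (brown), for all microglia (left) and without MHC II-high cells (right). Lines are exact conditional 95% intervals, cut at the axis limits, and a line without a point marks a ratio with 0 UMIs in 1 library. The *H2-DMa* and *H2-DMb1* ratios lie between -0.22 and 0.61 in both panels, while the female ratios of *H2-Aa* and *H2-Ab1* fall from 3.21 and 1.88 to 0.79 and 0.69.

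Over the 4 libraries, edgeR (quasi-likelihood test, covariate sex) called 0 of the 6 class II genes tested in microglia (Benjamini-Hochberg adjusted p under 0.05), where it called 0.428% of 7471 genes (32 genes, 3 higher and 29 lower in TG). At an unadjusted p under 0.05 there was 1 of the 6 genes, *H2-Aa* (logFC 1.39, FDR = 0.218), against 663 of all 7471 genes. The logFC was -0.003 for *Cd74* (FDR = 0.997), -0.10 for *H2-DMa* (FDR = 0.962) and 0.15 for *H2-DMb1* (FDR = 0.941). Without the MHC II-high cells, *Cd74* had a logFC of -1.21 (FDR = 0.0525). It was called at a mitochondrial limit of 10% (logFC -2.07, FDR = 2.7e-08, 0.226% of genes called) and at a clustering resolution of 0.06 (logFC -1.58, FDR = 0.000739, 0.569% of genes called), and its adjusted p spanned 2.7e-08 to 0.999 over 12 alternatives. DESeq2 called 0 genes in microglia. In simulated microglial counts the test recovered 30% of genes changed 2-fold and 82% of genes changed 4-fold, so even there it missed most 2-fold differences. The changed genes were picked at random, and the dispersion was fixed rather than estimated from these data. The recovery therefore does not give the power for genes held by few cells, such as *Cd74* and the chains. The test had 1 residual degree of freedom, which reflects how far the genotype difference varied between the sexes, not a spread between replicates.

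In all kept cells, which do not depend on clustering, the 4 genes summed were at 85.3 CPM in Female_WT, 110.6 in Female_TG, 236.9 in Male_WT and 125.1 in Male_TG. Male_WT was the highest library for *Cd74*, *H2-Aa*, *H2-Ab1* and *H2-Eb1* alike, and 140 of its 391 UMIs were from 1 cell. The female libraries also rested on single cells. In Female_TG 51 of 177 UMIs were from 1 cell and 45 from the ependymal-class cell, and in Female_WT 74 of 136 were from 1 cell. Interferon-signature endothelial cells, 43 in Female_TG, were absent from Female_WT, so the make-up of the cells differed too. The log2 ratio of the sum was 0.37 (0.04 to 0.71) in females and -0.92 (-1.17 to -0.68) in males. At a mitochondrial limit of 10% it was negative in both, at -1.26 and -0.32. edgeR called 0 of the 6 genes, against 0.832% of 12736 genes (106 genes). At an unadjusted p under 0.05 there was 1 of the 6, *Cd74* (logFC -0.52, FDR = 0.303), against 1033 of all 12736 genes. DESeq2 called 4 genes in all (0.015%) and no class II gene. Without the cell richest in the 7 genes in each library, *Cd74* passed the threshold (logFC -0.85, edgeR FDR = 0.0351, 0.888% of genes called), the lowest of 10 alternatives, which reached up to 1.0.

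In macrophages the ratio of the 4 genes summed was -4.72 in females (-7.03 to -3.12, 3 against 74 UMIs) and -1.08 in males (-6.79 to 2.56, 1 against 3 UMIs). The female value was that of the single Female_WT cell, and it changed sign with the class itself, being 1.58 with at least 500 genes per cell and 0.21 at resolution 0.06. The male value likewise became 4.44 with no mitochondrial limit and 4.12 without doublets. No class II gene passed the filter on low counts, and edgeR called 0.0% of the 104 genes tested, with 3 genes at an unadjusted p under 0.05. DESeq2 likewise called 0 genes there.

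No other gene of the pathway was called by genotype either. Of 41 genes listed for chains, peptide editors, promoter factors, inducing signals, proteases and costimulation, 37 were in the files, 30 of them not among the 7 genes described. In microglia 24 of the 30 were tested and 0 were called in either direction, against 32 of all 7471 genes (0.428%). At an unadjusted p under 0.05 there was 1 of the 24, against 663 of the 7471. DESeq2 called 0 of them. At such low shares nothing is read from the absence of calls. Their median logFC was -0.05, and that of all genes tested was -0.01. The machinery around the class II molecule was nonetheless present in microglia. *Ctss*, the cathepsin that degrades the invariant chain, was at 8404, 8412, 7929 and 9208 CPM in Female_WT, Female_TG, Male_WT and Male_TG, and at 2039 to 2962 CPM in macrophages. The endosomal proteases *Lgmn*, *Ctsb* and *Ctsl* stood at 1694, 1270 and 812.8 CPM in microglia over all libraries, and *Ifi30*, the lysosomal thiol reductase, at 59.4 CPM.

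Receptors and regulators upstream of *Ciita* were measured as well. *Ifngr1* and *Ifngr2*, the interferon gamma receptor chains, were at 442.4 and 142.8 CPM in microglia, *Jak1* at 250.7 CPM, *Irf1* at 147.5 CPM, and the myeloid factors *Irf8* and *Spi1* at 453.8 and 268.8 CPM. *Nfya*, a subunit of the factor that binds the Y box, was at 69.1 CPM and *Creb1* at 91.9 CPM. *March1*, the ubiquitin ligase that removes class II molecules from the surface, was at 281.9 CPM, the costimulatory *Cd86* at 159.7 CPM, and *H2-Ob*, a subunit of the H2-DM inhibitor H2-O, at 56.0 CPM in microglia. *H2-Ob* had 133 of its 141 UMIs in microglia and 0 in macrophages.

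Likeness of pattern was measured as the Pearson correlation of log2(CPM + 10) with that of the 7 genes summed, over 45 combinations of cell type and library with at least 5000 UMIs (13 cell types). The genes listed for the pathway were left out of the ranking, so it does not show how they would place. Among 11661 genes the most alike outside the pathway were *Gm1966* (r = 0.801), *Il6ra* (0.71), *Clec4a2* (0.69), *Plek* (0.681), *Was* (0.68), *Rnase4* (0.68), *Ier3* (0.674), *Hacd4* (0.669), *Pim1* (0.668) and *Txnip* (0.666). The points of a library share its depth, and the values are descriptive. The same measure between the sum of *Cd74*, *H2-Aa*, *H2-Ab1* and *H2-Eb1* and the sum of *H2-DMa* and *H2-DMb1* was 0.622.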

How the data were processed

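The authors deposited raw UMI counts per gene symbol and barcode from a Drop-seq pipeline, 3000 barcodes per library, without normalization. The labels name mm10 and Seurat 3.1.4, while the aligner and annotation are not given in the sources used here. The 4 libraries were grouped by the sex and genotype in their labels. Members and lists were chosen with earlier results of these data known. Cells with 200 to 7000 genes and at most 20% mitochondrial UMIs were kept, since 5%, the limit in the study's methods, left 14.5% to 55.6% of such barcodes per library. They were transformed with sctransform 0.4.2 and clustered in Seurat 5.3.0 (R 4.3.3; 19 principal components, resolution 0.5), and mixed clusters were split at resolution 1 after the data had been seen. Names required at least 3 markers of a list raised 2-fold or more, and 3 of 22 clusters stayed unnamed. H2 and pathway genes did not enter the clustering. Doublets were kept in the main setting (92 by Scrublet in scanpy 1.11.5).

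UMIs were summed per library and class and given as CPM with exact Poisson intervals. Shares have Clopper-Pearson intervals and ratios exact conditional binomial intervals, all at 95% (scipy 1.17.1). The intervals of CPM and of ratios treat UMIs as independent and leave out the spread between cells. A count of 0 was read against a limit of 3 counts. Genotype was tested with edgeR 4.0.16 (filterByExpr, TMM, quasi-likelihood, sex as a covariate, Benjamini-Hochberg over all genes tested, threshold 0.05); DESeq2 1.42.0 was an alternative. The study's Poisson regression over single cells was not used, because cells of a pool are not replicates. The edgeR test was tried on simulated counts with changed genes. The genes named were the 7 described and other pathway genes with at least 100 UMIs in macrophages or microglia. From outside the pathway list came the 10 genes with the most similar pattern and those with the largest ratio in the MHC II-high macrophage. The text adds genes of MHC II-high microglia, chosen after their values were seen. Alternatives were a mitochondrial limit of 5% or 10%, or no such limit, a minimum of 500 genes, no doublets, resolutions 0.06 and 1, thresholds of 3 and 10 UMIs for MHC II-high cells, thinning, no TMM factors, no filter on low counts, and leaving out single cells or libraries. The p-values rest on 4 pools, 1 per sex and genotype, and so not on a spread between replicate pools. The 1 residual degree of freedom reflects how far the genotype difference varied between the sexes. A genotype difference that varies by sex is therefore counted as noise.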

Additional observations from a re-analysis of the deposited data

Results flagged for a closer look

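In all kept cells the sexes differed in the sign of the genotype ratio. *H2-Ab1* had a log2 ratio, TG over WT, of 0.88 in females (35 against 19 UMIs) and -1.49 in males (30 against 79 UMIs), and the sum of *Cd74*, *H2-Aa*, *H2-Ab1* and *H2-Eb1* had ratios of 0.37 and -0.92. At a mitochondrial limit of 10% the ratios of the sum were -1.26 and -0.32, both negative. The difference between the sexes was not tested, because each ratio rests on 1 library per genotype. Without MHC II-high cells *H2-Ab1* had 10 against 7 UMIs in females and 6 against 7 in males. The ratios were then 0.52 (interval -1.03 to 2.15) and -0.33 (-2.18 to 1.47), both intervals including 0.

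Among the 7165 barcodes that failed the cell filters, 4 met the definition of an MHC II-high cell and held 54 of the 87 UMIs of the 4 genes found there. Of these, 3 had fewer than 200 genes, and 1, in Female_TG, had a mitochondrial share of 29.3% and 30 UMIs of the 4 genes.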

How the results depend on the processing

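TG and WT libraries were matched by sex alone, through the covariate and the ratios within each sex. No further pairing was possible, because each sex and genotype has 1 library and the labels give no replicate numbers that pair them. The share of the *Cd74*, *H2-Aa*, *H2-Ab1* and *H2-Eb1* UMIs held by MHC II-high cells stayed within 1 standard deviation over the 4 libraries under every alternative run. Those libraries differ in sex and genotype, so this deviation is no spread between replicates and makes a lenient limit. The microglial ratios of *H2-DMa* and *H2-DMb1* summed stayed within their counting interval within each sex. The number of MHC II-high cells was 5 and 10 at mitochondrial limits of 5% and 10%, and 9 to 14 without 1 library, being 9 without Male_WT. Thinned to 500 UMIs, 7.9% of microglia held an H2-DM UMI and 2.93% a UMI of the 4 genes. The 7 genes in macrophages averaged 9272 CPM at resolution 0.06. No macrophage class was found at 5% and 10%, so these give no value for it.

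Log2 ratios of the 4 genes summed moved most. In macrophages the female ratio was 1.58 with at least 500 genes per cell, 0.21 at resolution 0.06 and -0.96 without doublets, and the male ratio was 4.44 with no mitochondrial limit and 4.12 without doublets. In female microglia it was 0.20 and 0.27 at limits of 5% and 10%, -0.18 with no limit, -1.58 with at least 500 genes, -0.14 at resolution 0.06, 0.11 without the richest cells and 0.067 without MHC II-high cells. In male microglia it was -3.42 at 10%, -1.92 at resolution 0.06, -1.42 without the richest cells and -1.65 without MHC II-high cells. In all kept cells the female ratio was 1.57 at 5%, -1.26 at 10% and 1.01 without the richest cells, and the male ratio -0.58 at 5%, -0.32 at 10%, -1.22 with at least 500 genes, -1.71 without the richest cells and -1.49 without MHC II-high cells. The female ratio of *H2-DMa* and *H2-DMb1* summed was 0.55 at 5% there. The mean of both sexes' ratios in microglia, 0.65, became -0.24 or 1.53 when 1 library, and with it 1 sex, was left out.

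In microglia edgeR called 3 genes at 5%, 16 at 10%, 21 without the richest cells and 20 without a filter on low counts, and DESeq2 called 0. One class II gene, *Cd74*, was called at 10% (1 gene) and at resolution 0.06 (1 gene). In all kept cells 10 genes were called at 5%, 4 at 10%, 57 with no limit, 58 without doublets and 4 by DESeq2, and 1 class II gene without the richest cells. The logFC changed sign in microglia for *Cd74* (0.044 without TMM factors, 0.001 without a filter, 0.15 by DESeq2), *H2-Ab1* (0.34 by DESeq2), *H2-Eb1* (-0.18 at 5%, -0.40 with no limit, -0.94 with at least 500 genes) and *H2-DMa* (0.029 at 5%), and in all kept cells for *H2-DMa* (0.18 at 5%) and *H2-DMb1* (0.45 at 5%, 0.18 at 10%, 0.030 with at least 500 genes, 0.026 without TMM factors). The cause of these changes was not tested. Depth limits every value here, as 16 cells hold most UMIs of 4 of the genes, and *Ciita* had 4 UMIs.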
